A study of Mus musculus with 24 samples.

Results

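As3mt and 8 enzyme genes of one-carbon metabolism were followed in bone marrow-derived macrophages with and without a Tie2cre-driven deletion of Gch1, at rest and during activation. As3mt encodes arsenite methyltransferase, which passes methyl groups from S-adenosylmethionine to arsenite. The other listed genes were Mat2a, Ahcy, Mtr, Mthfd1, Mthfd2, Shmt1, Shmt2 and Mtap. As3mt was chosen by its genotype difference on these same arrays, so that difference is given as a description and was not tested. The one-carbon genes were taken as the pathway that supplies its methyl groups, also with earlier results known. The rule took each probe annotated to a listed gene that was detected, with a detection p under 0.01, on at least 3 of the 24 arrays. Of the 9 listed genes, 8 were named by a probe and 7 had a tested probe, against 8875 genes tested on the arrays in all. The table of probe names used here gave no probe for Mat2a, and the 1 probe of Mtr was detected on 0 arrays. The 8 named genes had 17 probes, of which 10 were tested, and 6 of the other 7 were never detected. Just inside the rule was the Shmt1 probe, detected on 4 arrays, and just outside it a second Mthfd1 probe, detected on 1 array.

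The cells were cultured from Gch1fl/flTie2cre mice, written GCHfl/flTie2cre in the labels and KO below, and from Gch1fl/fl mice, written GCHfl/fl and called wild-type (WT), with 3 animals per genotype. All were adult female C57bl/6J mice and all carried the floxed Gch1 allele. Tie2cre is active in endothelial as well as blood-forming cells, so the deletion was not limited to macrophages, and the WT littermates carried the floxed allele without Tie2cre. Bone marrow cells were grown into macrophages in medium conditioned by L929 cells and serum-starved before stimulation. Each animal gave 1 array before stimulation (0 h) and 1 each at 2 h, 8 h and 24 h after lipopolysaccharide (LPS) with interferon-gamma, 24 arrays in 8 groups. The study describes the arrays as paired data from littermates, but the labels do not say which KO and WT animals form a pair, so the genotypes were compared without pairing. The replicates are separate animals, and the 4 arrays of an animal are 1 culture source followed over time.

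Methionine is activated to S-adenosylmethionine by methionine adenosyltransferase (Mat2a with its regulatory subunit Mat2b). Methyltransferases such as As3mt use it and release S-adenosylhomocysteine, which Ahcy cleaves to homocysteine and adenosine, and methionine synthase (Mtr) rebuilds methionine with a methyl group from folate. Serine hydroxymethyltransferases load folate with carbon from serine, in the cytosol (Shmt1) and in mitochondria (Shmt2), and Mthfd1 and Mthfd2 interconvert the folate forms in these compartments. Mtap salvages methionine from the methylthioadenosine that polyamine synthesis leaves behind. Gch1 encodes GTP cyclohydrolase I, the first enzyme of tetrahydrobiopterin synthesis.

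On the arrays, mean intensity ranged from 593.1 to 1750 and the share of probes detected from 27.0% to 33.3%. Values below are log2 intensities after background correction and quantile normalisation. Probes detected on no array had a median of 5.01 to 5.02 on every array. The lowest detected probe of an array lay between 6.25 and 7.06, so a value below that range is only a bound on the true level. This lowest signal was 6.25 to 6.59 at 0 h, 6.58 to 6.98 at 2 h, 6.76 to 7.06 at 8 h and 6.30 to 6.78 at 24 h. It was higher on every 8 h array than on any 0 h array, so loss of detection at 8 h is not by itself a fall. Gch1 was lower in KO than in WT macrophages at 0, 2, 8 and 24 h, with differences of -2.55, -2.23, -2.60 and -1.86 on the log2 scale (adjusted p = 6.1e-04, 0.00311, 6.1e-04 and 0.00959). Gch1 was still detected on all KO arrays, with KO means of 11.31, 12.05, 11.86 and 11.04 at 0, 2, 8 and 24 h. By RT-PCR the study found no detectable Gch1 RNA in KO macrophages, resting or stimulated. Whether the Gch1 probes lie in the deleted exons was not checked. Of 8 macrophage markers 7 were named and detected on all 24 arrays, and their mean level spanned 12.34 to 12.71 over the 8 groups. No listed T cell, B cell, dendritic or erythroid marker was tested. The neutrophil markers Camp, Ltf and Ngp had mean levels between 5.43 and 7.94 over the groups, the endothelial marker Kdr 6.32 to 6.91 and the fibroblast marker Dcn 5.32 to 8.33, and 0 markers of any list were called by genotype. Fewer cells of a type and less RNA per cell cannot be told apart in such bulk samples.

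KO animal 5 and WT animal 6 stood apart from the other 4 animals. Both lay above all of these at 0 h and 2 h for Ahcy, Mthfd1, Shmt1 and Shmt2, and at 2 h also for Mthfd2 and Mtap. Both lay below them at 24 h for Mthfd1, Shmt2 and Mtap. They did not lie together on one side of the other animals at 8 h for any of the 6 genes, nor at any time for As3mt. With 1 such animal in each genotype, this split does not coincide with genotype. The arrangement of arrays on chips is not given in the sources used here.

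The promoter windows of As3mt, Mthfd1, Shmt2, Mtap and Mthfd2 are shown because the results on stimulation turn mostly on these genes. Shmt1, also called in KO macrophages, is left out because it was detected on only 4 arrays. They are RefSeq sequences of build GRCm38.p6, 5′ to 3′ on the strand of the gene, from 250 bases before to 50 bases after the start used by that table: As3mt chr19:46707208-46707507 (+ strand), Mthfd1 chr12:76254982-76255281 (+), Shmt2 chr10:127522395-127522694 (-), Mtap chr4:89137120-89137419 (+) and Mthfd2 chr6:83317555-83317854 (-). Capitals mark each CCAAT box, written CCAAT or, on the other strand, ATTGG.
As3mt: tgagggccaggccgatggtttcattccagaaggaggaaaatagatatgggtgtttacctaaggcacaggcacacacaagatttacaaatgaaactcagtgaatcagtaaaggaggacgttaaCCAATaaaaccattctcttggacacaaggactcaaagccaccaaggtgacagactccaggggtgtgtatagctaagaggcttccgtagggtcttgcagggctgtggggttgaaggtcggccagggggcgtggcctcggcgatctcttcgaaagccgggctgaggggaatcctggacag
Mthfd1: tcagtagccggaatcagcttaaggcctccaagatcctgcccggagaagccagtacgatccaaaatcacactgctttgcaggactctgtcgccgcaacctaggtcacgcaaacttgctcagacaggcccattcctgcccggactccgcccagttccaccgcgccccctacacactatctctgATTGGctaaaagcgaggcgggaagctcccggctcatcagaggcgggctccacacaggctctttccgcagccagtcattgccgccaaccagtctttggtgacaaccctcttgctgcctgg
Shmt2: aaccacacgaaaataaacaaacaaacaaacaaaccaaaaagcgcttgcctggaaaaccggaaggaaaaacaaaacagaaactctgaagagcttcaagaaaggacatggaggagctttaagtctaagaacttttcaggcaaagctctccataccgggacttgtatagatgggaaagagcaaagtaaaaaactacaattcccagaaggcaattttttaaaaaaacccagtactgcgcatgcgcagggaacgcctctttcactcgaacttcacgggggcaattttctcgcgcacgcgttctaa
Mtap: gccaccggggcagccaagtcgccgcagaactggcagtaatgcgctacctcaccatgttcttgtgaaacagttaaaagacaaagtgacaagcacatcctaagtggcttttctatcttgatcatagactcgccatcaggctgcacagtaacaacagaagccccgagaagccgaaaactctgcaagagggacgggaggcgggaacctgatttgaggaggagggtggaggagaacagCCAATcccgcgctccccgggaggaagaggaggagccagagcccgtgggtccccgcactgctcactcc
Mthfd2: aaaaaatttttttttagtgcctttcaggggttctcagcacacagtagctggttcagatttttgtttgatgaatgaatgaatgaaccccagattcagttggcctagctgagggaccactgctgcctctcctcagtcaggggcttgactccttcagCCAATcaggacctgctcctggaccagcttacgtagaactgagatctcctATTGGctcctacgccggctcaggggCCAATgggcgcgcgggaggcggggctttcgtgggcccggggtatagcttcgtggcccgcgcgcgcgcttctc

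As3mt held 1 CCAAT box, its first base at position -128 from the start, and Mthfd2 held 3. Mthfd1 and Mtap held 1 each, and Shmt2 held 0. A CCAAT box was present in 8 of the 9 listed genes' windows and in 37.4% of all 32851 promoter windows, on either strand. The E-box CACGTG, found in 7.15% of all windows, the C/EBP-ATF element core TGATGNAA, in 3.97%, and the antioxidant response element core TGACNNNGC, in 12.4%, were in 0 of the 9 windows. The GC box GGGCGG was in 5 of the 9 and in 35.7% of all windows. The As3mt window had no GC box, a GC content of 52.0% against a median of 52.7% over all windows, and 9 CpG dinucleotides against a median of 7. A match says only that the letters are there. The As3mt, Mthfd1 and Mthfd2 windows lie wholly inside the annotated spans of these genes, so the start used is not their outermost one.

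As3mt was detected on 0 of 12 KO arrays and on 12 of 12 WT arrays. At 0 h its brighter probe read 6.05, 6.15 and 6.04 in KO animals 1, 4 and 5, against 7.70, 8.31 and 8.20 in WT animals 2, 3 and 6. At 2 h it read 5.91, 5.54 and 5.71 in the KO animals, against 7.93, 8.14 and 8.00 in the WT animals. The genotypes did not overlap at either time, and each KO value lay below the detected range of its array. At 8 h it read 5.01, 5.41 and 5.02 in the KO animals, against 6.84, 7.06 and 7.48 in the WT animals. At 24 h it read 5.66, 5.38 and 5.32 in the KO animals, against 7.22, 8.39 and 7.72 in the WT animals. The highest KO value at any time, 6.15, was below the lowest WT value at any time, 6.84.

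The KO minus WT difference of this probe was -1.99 at 0 h, -2.30 at 2 h, -1.98 at 8 h and -2.32 at 24 h. Because KO macrophages were below detection, only a lower limit of the fold can be given, from the lowest detected signal of each KO array. As3mt was at least 3.06-fold lower in KO than in WT macrophages at 0 h, at least 2.15-fold at 2 h, at least 1.12-fold at 8 h and at least 2.46-fold at 24 h. These values chose the gene, and the gene passed the detection rule only through its WT arrays, so they support nothing further.

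The second As3mt probe was also detected on 0 of 12 KO arrays, and on 9 of 12 WT arrays, the exceptions being the 3 WT arrays at 8 h. Its KO minus WT differences were -1.94, -2.05, -1.18 and -1.81 at 0, 2, 8 and 24 h. The lower limits were 2.03-fold at 0 h, 1.32-fold at 2 h and 1.53-fold at 24 h, and none can be given at 8 h, where both genotypes were below detection. Both probes thus placed the KO arrays under the WT arrays at every time, and differed in how far the WT level at 8 h exceeded background.

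**Figure D1:**
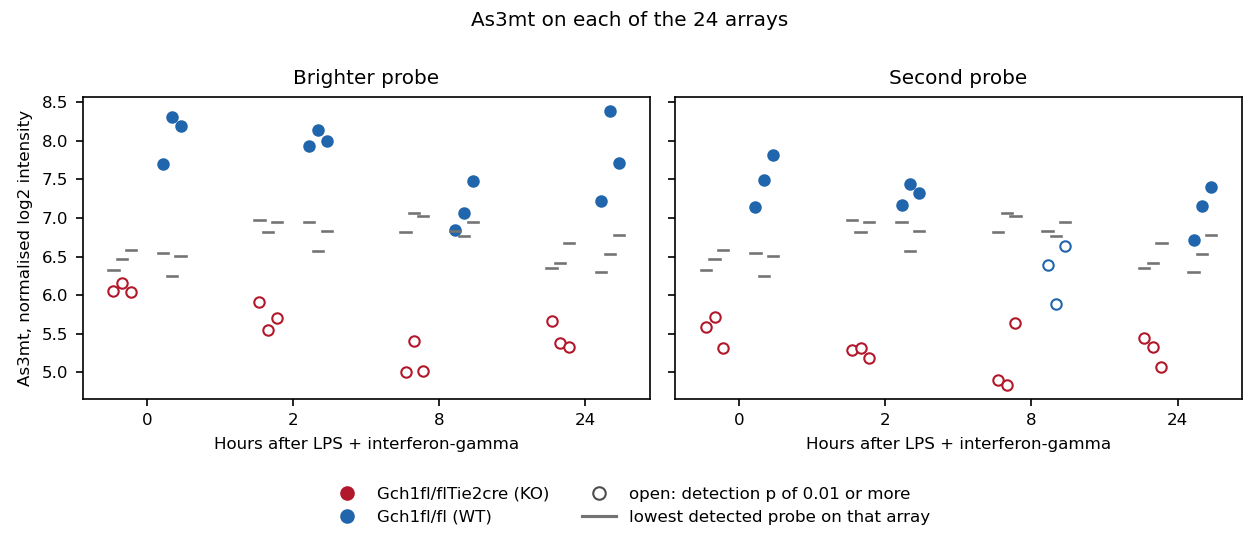
As3mt on each array: normalised log2 intensity (y axis) against hours after LPS with interferon-gamma (x axis), KO points left of WT points at each time, for the brighter probe (left panel) and the second probe (right panel). Open points were not detected and grey bars mark the lowest detected probe of the same array; the KO points lie at 6.15 or below in the left panel and the WT points at 6.84 or above.

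Within WT macrophages As3mt was lowest at 8 h. The brighter probe averaged 8.07 ± 0.32 at 0 h, 8.02 ± 0.11 at 2 h, 7.13 ± 0.32 at 8 h and 7.78 ± 0.59 at 24 h (SD, n = 3 animals). From high to low the order was 0, 2, 24 and 8 h, and neighbours in this order overlapped in every case. The change at 8 h was -0.94 ± 0.22 (SE, adjusted p = 0.0026 by limma with Benjamini-Hochberg adjustment), lower in 3 of 3 animals. On the second probe it was -1.18 (adjusted p = 5.3e-04), or at least 1.55-fold. That probe was detected on no 8 h array and passed the detection rule through the other times. The rule thus favoured its fall to 8 h and its rise afterwards. From 8 h to 24 h the level rose by 0.65 (adjusted p = 0.0294) on the brighter probe and by 0.78 (adjusted p = 0.0122) on the second, higher in 3 of 3 animals on both. At 2 h and 24 h the changes from 0 h were -0.05 and -0.29 (adjusted p = 0.921 and 0.316). A gene was called here and below when its adjusted p over all tested probes was under 0.05 and its fold over 1.5. By that rule 16.6% of all genes were lower at 8 h in WT macrophages and 16.6% were higher at 24 h than at 8 h. In KO macrophages the probe stayed below detection, with group means of 6.08, 5.72, 5.15 and 5.46 at 0, 2, 8 and 24 h, and no fold is given. This undetected KO signal also changed by -0.94 from 0 h to 8 h (limma, adjusted p = 0.00244), as much as the WT signal did. On the second probe the KO change at 8 h was -0.41 (adjusted p = 0.158). Whether a shift of background entered the WT fall at 8 h was not tested.

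As3mt lies at chr19:46707157-46741099 (GRCm38.p6, RefSeq), and Gch1 lies on chromosome 14. Of 38 annotated genes whose lower coordinate lies within 500 kb of that of As3mt, 17 were tested, and 0 were called by limma at any of the 4 times (lowest adjusted p = 0.524). Since 0.0225% of all genes were called at 0, 2 and 8 h and 0.338% at 24 h, a count of 0 among 17 genes does not set the neighbours apart. Their KO minus WT differences ran from -0.74, for Pcgf6, a Polycomb ring finger gene, at 24 h, to 0.38, for Cnnm2, a magnesium transport gene, at 8 h. Of the 68 differences 1 had an unadjusted p under 0.05. Borcs7, the tested gene nearest to As3mt, differed by -0.09, -0.25, 0.27 and 0.10 at 0, 2, 8 and 24 h.

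**Figure D2:**
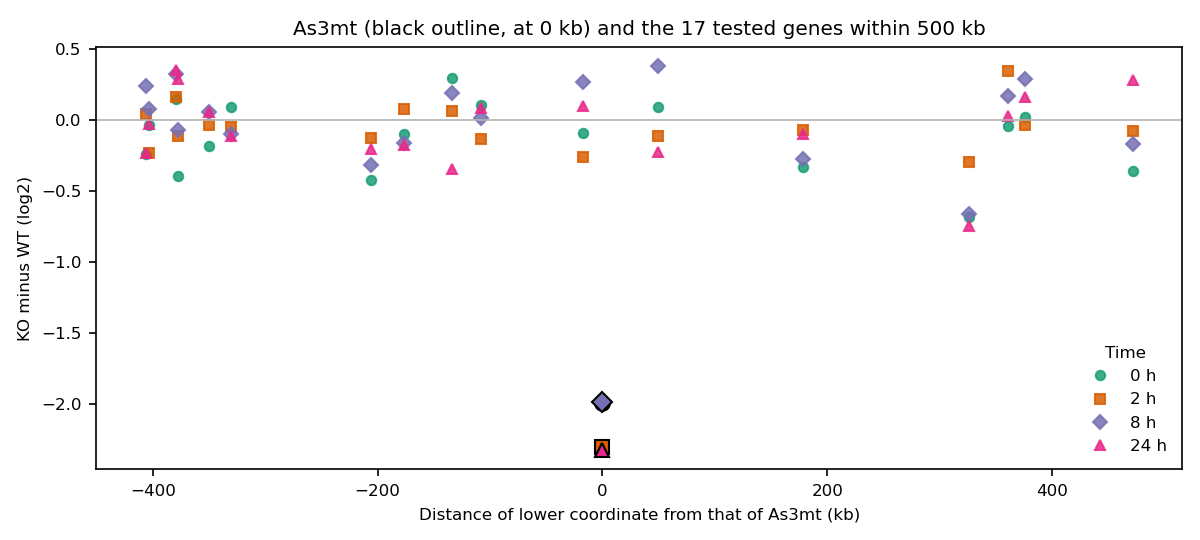
KO minus WT difference on the log2 scale (y axis) of As3mt and the 17 tested genes around it against the distance in kb of each gene's lower coordinate from that of As3mt (x axis), 1 symbol per time. The neighbours lie between -0.74 and 0.38 and As3mt, outlined in black, between -2.32 and -1.98, with its 0 h symbol under the 8 h one.

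Over the 24 arrays the genes whose levels were most like those of As3mt were Mcoln3, a lysosomal cation channel gene (Pearson r = 0.822), Tmem82 (0.793), Sdr39u1 (0.784), Gch1 itself (0.783) and Rab34, a small GTPase gene (0.768). All of these arrays share the genotype split and 4 arrays share each animal, so the correlations are a description. Of these 5 genes Gch1 was the only one called by genotype at any time. Within the 12 WT arrays r was 0.60 for Mcoln3, 0.731 for Tmem82, 0.734 for Sdr39u1, -0.22 for Gch1 and 0.816 for Rab34. Over all 24 arrays, where the genotype split that chose As3mt enters r, the one-carbon genes ranked lower among 8874 genes: Mthfd1 was 1144th (r = 0.288), Shmt2 1491st, Mtap 2165th, Shmt1 3400th, Mthfd2 4429th and Ahcy 8274th (r = -0.34). Within the 12 WT arrays r was 0.613 for Mtap, above that of Mcoln3, 0.559 for Mthfd1, 0.557 for Shmt2, 0.438 for Shmt1, -0.00 for Mthfd2 and -0.21 for Ahcy.

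None of the 6 tested one-carbon genes was called between KO and WT macrophages. The count was 0 of 6 at 0 h, 2 h, 8 h and 24 h by limma, where 0.0225%, 0.0225%, 0.0225% and 0.338% of all genes were called. At an unadjusted p under 0.05 the count was 0, 0, 0 and 1. The median KO minus WT difference over the 6 genes was 0.05, 0.01, -0.17 and -0.02 at the 4 times, against -0.00, -0.02, -0.01 and -0.02 over all genes. The differences ran from -0.30 to 0.46 up to 8 h. The 95% intervals of the 24 differences reached from -1.95 to 2.20 over the 6 genes. The genotypes did not overlap in 4 of the 24 differences (Ahcy and Mthfd2 at 24 h, Shmt1 and Shmt2 at 8 h). Shmt1 and Shmt2 were detected on no array of either genotype at 8 h, so their separation is between undetected values. Over all genes 7.46%, 7.53%, 9.79% and 11.8% did not overlap at 0, 2, 8 and 24 h.

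**Figure D3:**
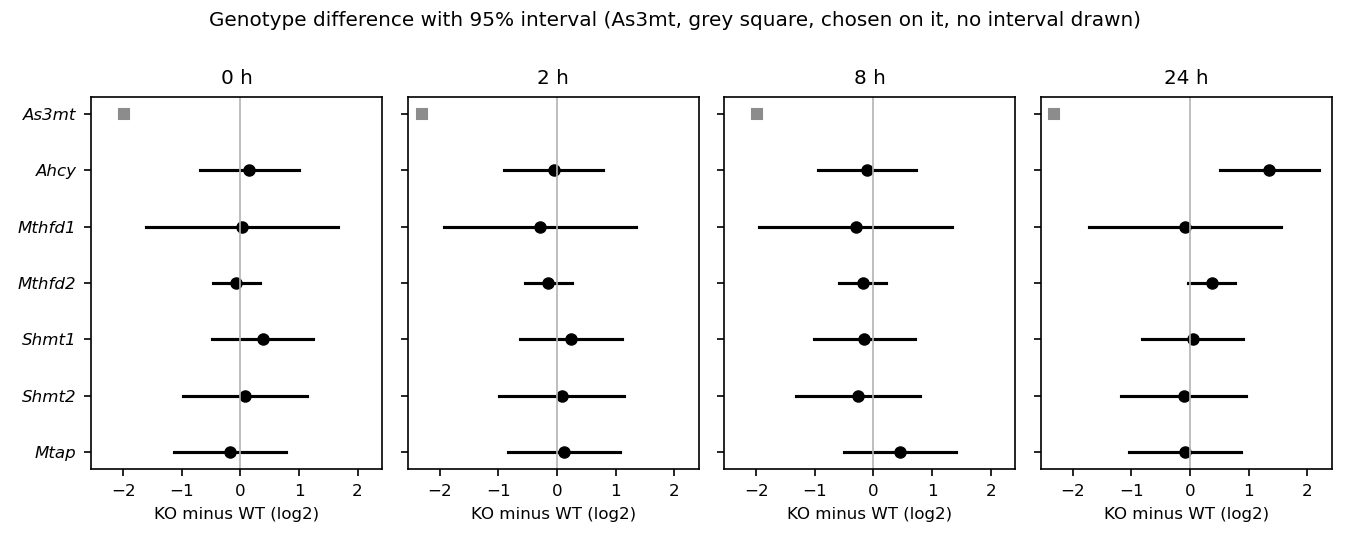
KO minus WT difference on the log2 scale (x axis) of the 7 tested genes (rows) at each time (panels); points are fitted differences and bars 95% intervals, n = 3 animals per genotype. As3mt, drawn as a grey square with no interval, lies near -2 throughout, and of the 6 one-carbon genes Ahcy at 24 h, at 1.35, is the one whose interval does not reach 0.

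Ahcy, S-adenosylhomocysteine hydrolase, had the widest genotype gap of the 6 genes. At 24 h it read 8.89, 9.25 and 9.42 in the KO animals, against 8.35, 7.67 and 7.47 in the WT animals, and the genotypes did not overlap. The difference was 1.35 ± 0.40 (SE, 95% interval 0.51 to 2.20), with an unadjusted p of 0.00316 and an adjusted p of 0.173, which did not pass the test (range over 19 alternatives 6.7e-04 to 0.979). At 0 h Ahcy read 8.26, 8.08 and 9.33 in the KO animals, against 8.13, 7.96 and 9.12 in the WT animals, and at 8 h 8.58, 8.27 and 8.31 against 8.65, 8.43 and 8.42. At 0 h the high animal of each genotype was 5 or 6, and at 8 h all 6 animals lay close together. From 8 h to 24 h Ahcy was higher in 3 of 3 KO animals (0.80, adjusted p = 0.109) and lower in 3 of 3 WT animals (-0.67, adjusted p = 0.195), neither past the threshold. The KO and WT responses from 0 h to 24 h differed by 1.20 (adjusted p = 0.806). Among animals 1 to 4 alone, 2 per genotype, the 24 h difference was 1.06 with an adjusted p of 0.0355. With animals 5 and 6 taken as a block it was 1.35 (adjusted p = 0.0456). Animals 5 and 6 were set apart with the spread of these data known, so these 2 results do not stand as tests. The other 2 Ahcy probes were never detected, so this rests on 1 probe.

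Mthfd1, Shmt2 and Mtap were lower at 8 h than at 0 h in both genotypes. Of the 6 genes 4 were lower at 8 h in KO macrophages (Mthfd1, Shmt1, Shmt2 and Mtap) and 3 in WT macrophages (Mthfd1, Shmt2 and Mtap), and 0 were higher in either. Over all genes 19.1% were lower and 15.8% higher in KO macrophages at 8 h, and 16.6% lower and 14.6% higher in WT macrophages. The median change of the 6 genes was -1.20 in KO and -1.04 in WT macrophages, against -0.06 and -0.05 over all genes. All 4 genes that were lower in KO macrophages were detected on 0 of 3 arrays of either genotype at 8 h. Shmt1 and Shmt2 were detected at 0 h and 2 h only. They passed the detection rule through the times at which they were high, and the rule favoured a fall in them. Mthfd1 and Mtap were detected at 0, 2 and 24 h only, so the rule favoured a fall at 8 h in them as well. These 4 are all the genes called lower at 8 h in either genotype. The counts, medians and 8 h tests thus lean toward a fall and are a description. At 2 h 0 of 6 genes were called in either genotype, with 10.7% of all genes lower and 6.31% higher in KO macrophages and 9.63% lower and 6.56% higher in WT macrophages. At an unadjusted p under 0.05 the 2 h count was 1 in KO and 1 in WT macrophages, Mthfd2 in both.

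Mthfd1, the cytosolic enzyme that carries several folate activities, was below detection on all 8 h arrays. It passed the detection rule through the other times only, which favoured a fall at 8 h. In KO animals 1, 4 and 5 it read 5.48, 5.00 and 4.83 at 8 h, against 7.02, 7.10 and 8.64 at 0 h. In WT animals 2, 3 and 6 it read 5.23, 5.97 and 5.02 at 8 h, against 7.06, 7.00 and 8.62 at 0 h. Within both genotypes the 8 h values lay below all 0 h values, and the animal highest at 0 h was lowest at 8 h. The change was -2.49 ± 0.74 in KO (adjusted p = 0.0122, at least 1.54-fold) and -2.16 ± 0.74 in WT macrophages (adjusted p = 0.0291, at least 1.64-fold). Without KO animal 5 the KO change was -1.82 (adjusted p = 0.0789), and without KO animal 4 it was -2.68 (0.0649). The WT change was -1.44 (adjusted p = 0.144) without WT animal 6, and -2.72 to -2.16 (0.0546 to 0.0821) without animal 2, 3 or 4. Among animals 1 to 4 alone the changes were -1.82 (1.3e-04) and -1.44 (9.2e-04), in a subset of 2 animals per genotype chosen with these data known. By 24 h it read 7.09, 6.62 and 5.16 in the KO animals, against 7.22, 7.02 and 4.88 in the WT animals. Animals 1 to 4 were thus near their 0 h values and animals 5 and 6 were still below detection.

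Shmt2, the mitochondrial serine hydroxymethyltransferase, was detected on 4 of 12 KO arrays and 4 of 12 WT arrays, all at 0 h or 2 h, so its falls below are changes toward background whose size is not measured. It read 5.11, 5.15 and 5.02 at 8 h in the KO animals, against 6.36, 6.58 and 7.73 at 0 h. In the WT animals it read 5.47, 5.31 and 5.28 at 8 h, against 6.69, 6.46 and 7.28 at 0 h. The change was -1.80 ± 0.48 in KO (adjusted p = 0.0061) and -1.46 ± 0.48 in WT macrophages (adjusted p = 0.0234), and no fold is given because the 0 h mean was below the lowest detected signal of the 8 h arrays. Without animal 2, 3 or 6 the WT change lay between -1.61 and -1.18, with an adjusted p between 0.083 and 0.126. At 24 h it read 6.26, 5.36 and 4.95 in the KO animals, against 5.96, 5.87 and 5.07 in the WT animals, and was detected on none of these arrays. The change from 0 h was -1.37 (adjusted p = 0.0308, at least 1.33-fold) in KO macrophages, and -1.18 (0.0599) in WT macrophages, where it was not called. Without animal 5 the KO change at 24 h was -0.66 (adjusted p = 0.243), and without animal 2, 3 or 4 it was -1.44 to -1.37 (0.053 to 0.111). Among animals 1 to 4 alone, a subset chosen with these data known, it was -0.66 with an adjusted p of 0.0295.

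Shmt1, its cytosolic counterpart, was detected on 2 of 12 KO arrays and 2 of 12 WT arrays, all from animals 5 and 6 at 0 h and 2 h. Its differences thus set mostly undetected values against each other, in a gene that passed the detection rule only through those arrays. With all probes tested its KO change at 8 h had an adjusted p of 0.0809 and at 24 h of 0.142, neither below 0.05. It read 4.93, 5.03 and 5.07 at 8 h in the KO animals, against 5.53, 6.34 and 6.65 at 0 h, a change of -1.16 (adjusted p = 0.0235). In the WT animals it read 5.11, 5.08 and 5.31 at 8 h, against 5.11, 5.71 and 6.55 at 0 h, a change of -0.62 (adjusted p = 0.222) that did not pass the test. The KO change at 24 h was -1.02 (adjusted p = 0.045), and without the animal as a block its adjusted p was 0.076. Without animal 4 or 5 the KO change at 8 h was -1.09 or -0.95 (adjusted p = 0.153 or 0.107), and at 24 h it was -1.02, -0.83 or -0.85 without animal 3, 4 or 5 (0.0804, 0.286 or 0.165). The KO and WT responses were not called as different at 8 h or 24 h.

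Mtap, methylthioadenosine phosphorylase, read 6.36, 6.89 and 6.23 at 8 h in the KO animals, against 7.81, 7.60 and 7.76 at 0 h. In the WT animals it read 5.88, 6.35 and 5.88 at 8 h, against 7.67, 7.88 and 8.14 at 0 h. The 8 h values lay below all 0 h values in both genotypes. Mtap was detected on no 8 h array, so the detection rule favoured this fall. The change was -1.23 ± 0.43 in KO (adjusted p = 0.0297, at least 1.69-fold) and -1.86 ± 0.43 in WT macrophages (adjusted p = 0.00242, at least 2.07-fold), and on the second Mtap probe it was -1.88 (0.00655) and -1.77 (0.0104). Without animal 1, 3, 4 or 5 the KO change lay between -1.49 and -1.08 and its adjusted p between 0.0556 and 0.104.

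Mthfd2, the mitochondrial methylenetetrahydrofolate dehydrogenase, was detected on all 24 arrays and was the 1 of the 6 genes called higher at 24 h. In the KO animals it read 13.09, 13.41 and 13.27 at 24 h, against 12.82, 12.38 and 12.75 at 0 h. In the WT animals it read 12.93, 12.70 and 13.01 at 24 h, against 12.87, 12.66 and 12.61 at 0 h. The KO values at 24 h were above all WT values at 24 h and above all KO values at 0 h, while the WT values at 24 h and 0 h overlapped. Mthfd2 rose by 0.60 ± 0.18 in KO macrophages (adjusted p = 0.0129), and changed by 0.17 ± 0.18 in WT macrophages (adjusted p = 0.503). From 8 h to 24 h it rose by 1.07 in KO macrophages (adjusted p = 1.3e-04; 1.20 and 1.9e-04 on the second probe), and differed by 0.51 in WT macrophages (adjusted p = 0.0352), under the 1.5-fold limit. The difference between genotypes at 24 h was 0.37 (95% interval -0.03 to 0.77, adjusted p = 0.599), and the responses from 0 h differed by 0.44 (adjusted p = 0.961), so the responses are not shown to differ. Without KO animal 4 the rise at 24 h was 0.39 (adjusted p = 0.182), and on the second probe it was 0.51 (0.0633). At 8 h its KO change was -0.47 (adjusted p = 0.0472), under the 1.5-fold limit, and on the second probe -0.69 (0.014), past it. At 24 h 1 of the 6 genes was higher in KO and 0 in WT macrophages, with 17.5% and 17.6% of all genes, and 2 were lower in KO and 0 in WT macrophages, with 15.7% and 15.1% of all genes. In WT macrophages at 24 h 1 of the 6 had an unadjusted p under 0.05. From 8 h to 24 h in KO macrophages 17.8% of all genes were higher.

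**Figure D4:**
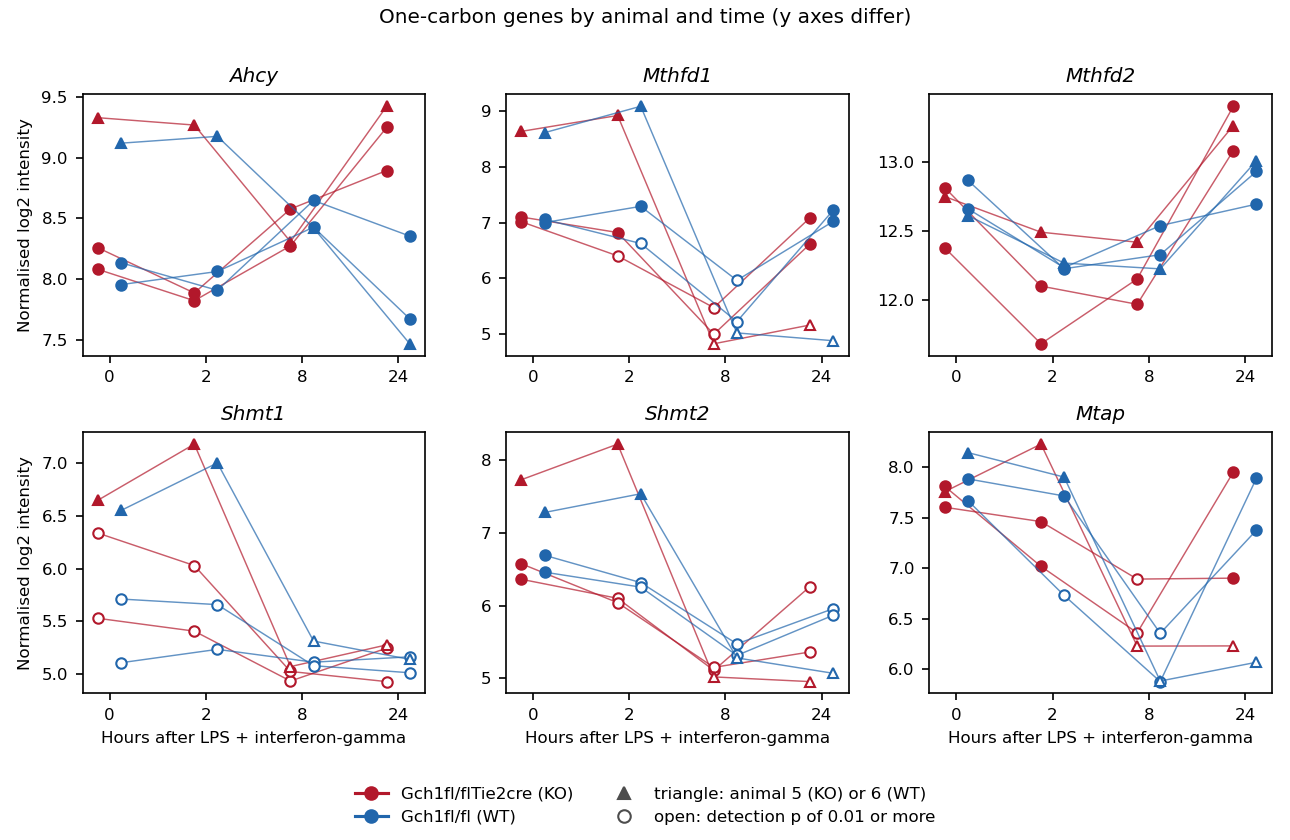
Normalised log2 intensity (y axes, which differ) of the 6 one-carbon genes against hours after stimulation (x axis); each line is 1 animal, KO drawn left of WT, with triangles for animals 5 and 6 and open symbols for arrays below detection. Mthfd1, Shmt1, Shmt2 and Mtap have only open symbols at 8 h, and the triangles of Mthfd1 and Shmt2 lie above the other animals at 0 h and below them at 24 h.

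The responses of the 6 genes were not called as different between the genotypes. The count was 0 of 6 at 2 h, 8 h and 24 h by limma, where 0%, 0% and 0.0113% of all genes were called. At an unadjusted p under 0.05 it was 0, 0 and 1, the last being Ahcy. The differences between KO and WT responses ran from -0.31 to 0.30 at 2 h, from -0.54 to 0.63 at 8 h and from -0.34 to 1.20 at 24 h.

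**Figure D5:**
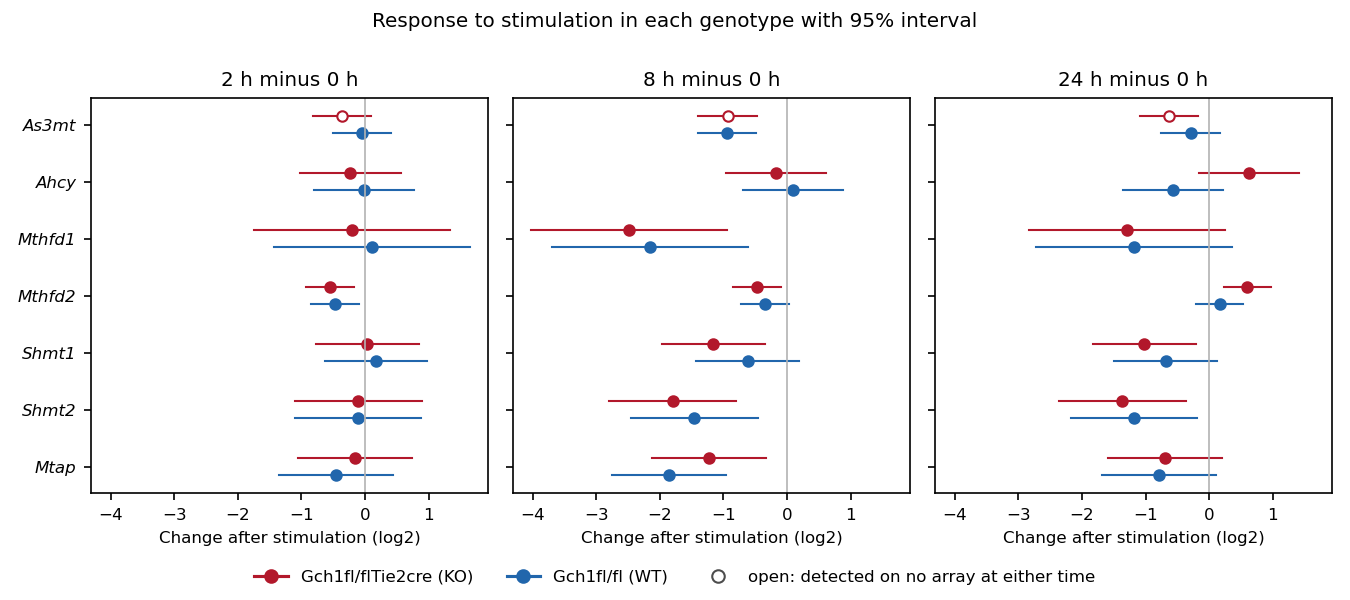
Change from 0 h on the log2 scale (x axis) of As3mt and the 6 one-carbon genes (rows) at 2 h, 8 h and 24 h (panels), KO above WT in each row; points are fitted changes, bars 95% intervals, n = 3 animals. At 8 h Mthfd1 has the lowest point in both genotypes (-2.49 in KO, -2.16 in WT), and open symbols mark KO As3mt, detected at neither time.

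The other genes of these pathways were listed from textbook knowledge, with earlier results known. In the methionine cycle and transsulfuration 5 of 15 listed genes were tested, in the folate cycle and folate transport 17 of 27, in serine synthesis 2 of 3, and in polyamine synthesis and methionine salvage 10 of 16. In these 4 lists 0 genes were called between KO and WT macrophages at any time, where 0.0225% to 0.338% of all genes were called, so the count does not set the lists apart. Mthfd1, Mthfd2, Shmt1 and Shmt2 in the folate list, Ahcy in the methionine list and Mtap in the polyamine list are the genes described above.

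Mat2b, the regulatory subunit beside Mat2a, was the methionine cycle gene that was called after stimulation. It averaged 10.97 at 24 h against 10.11 at 0 h in KO macrophages (0.85, adjusted p = 8.0e-04), and 10.81 against 10.13 in WT macrophages (0.69, 0.00434). At 2 h in KO macrophages it was lower (-0.78, adjusted p = 0.00343), and in WT macrophages it changed by -0.47 (0.0748), not called. The other 4 tested genes of that list were not called at 2, 8 or 24 h in either genotype.

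In the folate list 6 of 17 genes were lower and 1 higher at 8 h in KO macrophages (19.1% and 15.8% of all genes), and 4 lower and 0 higher in WT macrophages (16.6% and 14.6%). At 24 h 6 were lower and 2 higher in KO (15.7% and 17.5% of all genes), and 6 lower and 0 higher in WT macrophages (15.1% and 17.6%). Shmt1 and Shmt2, in which the detection rule favoured a fall, are counted among the lower genes in KO macrophages at both times. Shmt2 is also counted in WT macrophages at 8 h. Mthfd1 and Slc19a1 were detected on no 8 h array either, so the rule favoured a fall at 8 h in them. Both are counted as lower at 8 h in both genotypes, so the 8 h counts are a description. The list median was -0.54 in KO and -0.62 in WT macrophages at 8 h, against -0.06 and -0.05 over all genes. Slc19a1, the reduced folate carrier, averaged 5.72 at 8 h against 8.33 at 0 h in KO macrophages and 5.88 against 8.57 in WT macrophages. It was detected on no 8 h array and was at least 2.58-fold lower in KO (adjusted p = 8.5e-04) and at least 3.29-fold lower in WT macrophages (7.4e-04). Fpgs, which adds glutamates that retain folate in cells, changed by -1.13 in KO and -1.35 in WT macrophages at 8 h (adjusted p = 0.0151 and 0.00542). Folr2, a macrophage folate receptor, changed by -1.78 in KO and -1.75 in WT macrophages at 24 h (adjusted p = 0.0137 and 0.0154). Ggh, which removes those glutamates, rose by 1.46 in KO macrophages at 24 h (adjusted p = 4.1e-04), and changed by 0.66 in WT macrophages (0.0715), not called. Its KO minus WT difference at 24 h was 0.74 (adjusted p = 0.387), also not called.

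Both tested serine synthesis genes moved with time in both genotypes. Psat1, phosphoserine aminotransferase, averaged 11.39 at 8 h and 7.76 at 24 h in KO macrophages, against 10.00 at 0 h. In WT macrophages it averaged 11.62 at 8 h and 7.46 at 24 h, against 10.15 at 0 h. It rose by 1.39 in KO and 1.47 in WT macrophages at 8 h (adjusted p = 0.00427 and 0.00302), and at 24 h the changes were -2.24 in KO and -2.68 in WT macrophages (6.4e-05 and 8.9e-06). Phgdh, phosphoglycerate dehydrogenase, the first enzyme of the route, fell by 1.59 in KO macrophages at 24 h (adjusted p = 0.00295) and was at least 2.58-fold lower in WT macrophages at 24 h (7.7e-04).

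In the polyamine and methionine salvage list 5 of 10 genes were lower and 1 higher at 8 h in KO macrophages (19.1% and 15.8% of all genes), and 4 lower and 1 higher in WT macrophages (16.6% and 14.6%). Mtap, in which the detection rule favoured a fall at 8 h, is among the lower genes in both genotypes. At 24 h 3 were lower and 0 higher in KO macrophages (15.7% and 17.5% of all genes). In WT macrophages 2 were lower and 1 higher (15.1% and 17.6% of all genes), and this WT count of lower genes is near the share over all genes. Srm, spermidine synthase, changed by -2.19 in KO and -2.28 in WT macrophages at 8 h (adjusted p = 0.00719 and 0.006), and by -2.60 in KO and -2.56 in WT macrophages at 24 h (0.00219 and 0.00242). Il4i1, an amino acid oxidase, changed by -1.91 in KO and -2.83 in WT macrophages at 24 h (4.2e-04 and 7.5e-06). Adi1, a salvage dioxygenase downstream of Mtap, changed by -1.68 in KO and -1.10 in WT macrophages at 8 h (2.8e-04 and 0.00906). Smox, spermine oxidase, rose by 1.43 in KO and by 1.38 in WT macrophages at 8 h (2.0e-04 and 3.1e-04).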

How the data were processed

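Total RNA (mirVana kit) was labelled with the Ambion MessageAmp kit and hybridised to Illumina MouseWG-6 v2 BeadChips, 24 arrays of 6 animals. The authors extracted probe intensities and detection p-values with GenomeStudio and deposited them before normalisation. A second deposited table held log2 values that the authors had normalised by variance stabilisation with limma in R 2.14. Here the intensity table was the starting point, and the log2 table was an alternative (rank correlation of 1 with the intensities on every array).

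Intensities were background-corrected from the detection p-values, given an offset of 16, quantile-normalised and log2-transformed (neqc, limma 3.58.1, statmod 1.5.0, R 4.3.3). Of 45281 probes, 16498 with a detection p under 0.01 on at least 3 arrays were tested. Probe names came from the platform annotation, in which 8 probes had several genes and 2440 had none, and a gene was shown by its brightest tested probe. 8 group means were fitted with limma on all 24 arrays, with the animal as a random block (consensus correlation 0.124) and Benjamini-Hochberg adjustment over all tested probes. The labels give each array's animal. Deviations from group means correlated with a median of 0.256 between arrays of the same animal and -0.02 between animals. Only 3 animals per genotype limit the precision. A simulated data set with known changes was used to check the fit.

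Named were all listed genes with all their tested probes, Gch1, the neighbours of As3mt and the 5 genes most like it. In each pathway list the genes called by genotype were named, with a selection of those called after stimulation. The selection is not complete. For example, Tyms in the folate list changed by -2.46 in WT macrophages at 24 h, where it was called, and by -1.60 in KO macrophages, where it was not. The genes, lists, alternatives and the separation of animals 5 and 6 were chosen with earlier results of these data known.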

Additional observations from a re-analysis of the deposited data

How the results depend on the processing

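As3mt stayed lower in KO macrophages under every alternative run, and the size depended on background handling. The gene was chosen on this difference in these same arrays, so its direction under the alternatives is a description. At 0, 2, 8 and 24 h the KO minus WT difference was -0.99, -0.90, -0.72 and -1.05 in the deposited log2 values, -0.93, -1.02, -0.77 and -0.98 after quantile normalisation without background correction, and -1.58, -1.76, -1.33 and -1.71 with an offset of 50. It was -1.96 at 2 h after cyclic loess, and -2.05 at 2 h and -1.18 at 8 h on the second probe. Leaving out 1 animal gave -2.17 to -1.87, -2.40 to -2.21, -2.13 to -1.81 and -2.60 to -2.01. The fall of As3mt in WT macrophages at 8 h was -0.52 after quantile normalisation without background correction, under the 1.5-fold limit, and -1.05 to -0.79 when 1 animal was left out. The fit with no replicate block changed 1 of the calls recomputed, Shmt1 in KO macrophages at 24 h (-1.02, adjusted p = 0.076).

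Of the 6 one-carbon genes, the number called between KO and WT at 24 h was 2 with array weights (Ahcy 1.35, adjusted p = 0.00167, and Mthfd2 0.60, 0.0123), and 1 (Ahcy) with animals 5 and 6 as a block, with animals 1 to 4 only, and with that block at each time, an alternative chosen after seeing the data. The number of different 24 h responses was 2 with array weights and 1 with the block at each time. Called at 2 h in KO macrophages was 1 gene (Mthfd2) with array weights and with animals 1 to 4 only, and 0 to 1 when 1 animal was left out (1 without animal 5). At 8 h in KO macrophages 2 were called without background correction and 2 without the filter on dim probes, and 1 to 4 when 1 animal was left out (2 without animal 4, 1 without animal 5). At 24 h in KO macrophages the number was 1 in the deposited values, 1 without background correction, 1 without the filter, 0 in the fit on only the arrays compared, 5 with array weights, 6 with the block at each time, and 0 to 3 when 1 animal was left out (1 without animal 3, 0 without animal 4, 1 without animal 5). At 8 h in WT macrophages it was 1 in the deposited values, 1 without background correction, 1 without the filter, and 1 to 3 when 1 animal was left out (1 without animal 2, 3 or 6). At 24 h in WT macrophages it was 1 after cyclic loess, 1 with array weights, 1 with animals 1 to 4 only, 4 with the block at each time, and 0 to 1 when 1 animal was left out (1 without animal 5). The causes were not tested. Signals near background limit As3mt, Mthfd1, Shmt1, Shmt2 and Mtap.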

Other observations

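Of 16 listed genes of methyltransferases that act on small molecules or lipid-modified proteins, 7 were tested. Between KO and WT macrophages 0 of the 6 besides As3mt were called at any time. Over all genes 0.0225% were called at 0, 2 and 8 h and 0.338% at 24 h, so this count does not set the 6 genes apart. Gamt, the creatine-forming guanidinoacetate methyltransferase, changed by -1.63 in KO and -1.62 in WT macrophages at 8 h (adjusted p = 0.00212 and 0.00242). Tpmt, thiopurine methyltransferase, rose by 1.89 in KO and by 1.57 in WT macrophages at 24 h (adjusted p = 0.00152 and 0.00596). Icmt, which methylates prenylated proteins, rose by 0.92 in KO and by 0.89 in WT macrophages at 24 h (adjusted p = 9.9e-04 and 0.00126).

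Of 13 listed genes for the uptake, reduction and export of arsenic 9 were tested. Txnrd1, thioredoxin reductase, was the 1 called by genotype, lower in KO macrophages at 24 h (-0.93, adjusted p = 0.0423), with means of 11.23 in KO and 12.16 in WT macrophages. Over all genes 0.338% were called by genotype at 24 h. Aqp9, an aquaglyceroporin that carries arsenite, averaged 10.36 at 8 h against 7.40 at 0 h in KO macrophages (2.96, adjusted p = 1.7e-04), and 9.98 against 7.57 in WT macrophages (2.41, 0.00123). Gsto1, a glutathione transferase that reduces arsenicals, changed by -1.14 in KO and -1.29 in WT macrophages at 24 h (adjusted p = 5.9e-06 and 1.3e-06). Slc39a8, a metal ion carrier, was at least 1.49-fold lower in KO and at least 1.41-fold lower in WT macrophages at 24 h (adjusted p = 4.0e-04 and 6.2e-04). It was detected on no 24 h array, so the detection rule favoured this fall.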
